A study of Rattus norvegicus with 10 samples.

Results

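The genes described here encode the enzymes that take glucose to pyruvate, the lactate dehydrogenases, a neuronal glucose carrier and a monocarboxylate carrier, the pyruvate dehydrogenase complex and the enzymes of the tricarboxylic acid (TCA) cycle. They were chosen by name from a list of 33 gene symbols fixed by their place in the pathway, and 32 of the 33 were found among the 17168 gene symbols of the count table. Idh3b was not analysed here. All 32 had enough counts to be tested, so no member was lost to the filter on low counts.

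RNA was measured in 10 libraries of left hippocampus from female TgF-344AD rats, all of the Tg-AD genotype and all 11 months old. TgF-344AD rats carry human transgenes for mutant amyloid precursor protein and presenilin, driven by the mouse prion promoter, and serve as a rat model for Alzheimer disease. The 5 untreated libraries are of rats that received rodent chow, and the 5 ibudilast libraries are of rats that received chow with ibudilast from 5 months of age for 6 months. Ibudilast blocks a number of the phosphodiesterases that degrade cyclic nucleotides. Both groups carry the transgenes, and no rats without them were analysed here. The comparison asks how treatment with the drug relates to hippocampal gene expression in these transgenic females.

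Glycolysis runs in the cytosol and splits glucose into pyruvate. Pyruvate is either reduced to lactate by lactate dehydrogenase or carried into mitochondria, where the pyruvate dehydrogenase complex turns it into acetyl-CoA, the fuel of the TCA cycle. In brain, neurons take up glucose mainly through the carrier encoded by Slc2a3 and rely heavily on mitochondrial oxidation, whereas astrocytes release lactate.

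Most of these enzymes did not pass the test between the groups, and those that did moved in different directions. Of the 32 genes, 4 were lower with ibudilast (Pfkl, Eno1, Idh2 and Suclg1) and 2 were higher (Slc2a3 and Ogdh), and 26 did not pass (quasi-likelihood test of edgeR with p adjusted over 11682 tested genes by Benjamini-Hochberg, called under 0.05). The share that passed was 18.8% of these genes, where 38.5% of all tested genes passed. By direction, 12.5% of the members were lower and 6.25% higher, against 18.5% and 20% of all tested genes, so neither share exceeded the background. The fitted log2 fold changes ran from -0.67 to 0.63 with a median of -0.16, where the median of all tested genes was 0.01. The sign of the fold change was negative for 23 members and positive for 9.

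Glycolysis had a median log2 fold change of -0.19 over 13 genes, the pyruvate dehydrogenase complex -0.08 over 4 genes and the TCA cycle -0.09 over 11 genes. Within a library, the median deviation of the glycolytic genes from their means over the 10 libraries, minus that of the TCA cycle genes, was 0.04, 0.09, 0.21, 0.03 and 0.02 in untreated libraries 1 to 5 and 0.06, -0.12, -0.29, -0.13 and -0.09 in ibudilast libraries 1 to 5, on the log2 scale. It was above 0 in all 5 untreated libraries and below 0 in 4 of 5 ibudilast libraries, and ibudilast 1 lay inside the untreated range. As the gene means are taken over both groups, opposite signs of the groups follow from a difference between them and add nothing to it. The group means were 0.08 ± 0.08 and -0.11 ± 0.13 (SD, n = 5 each), given as a description with no test. In glycolysis 2 of 13 genes fell and none rose, in the pyruvate dehydrogenase complex none of 4 passed, and in the TCA cycle 2 of 11 fell and 1 rose. The 11 TCA cycle genes include the cytosolic Mdh1 and the NADP-dependent Idh2, and Idh2 is among those that fell.

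**Figure D1:**
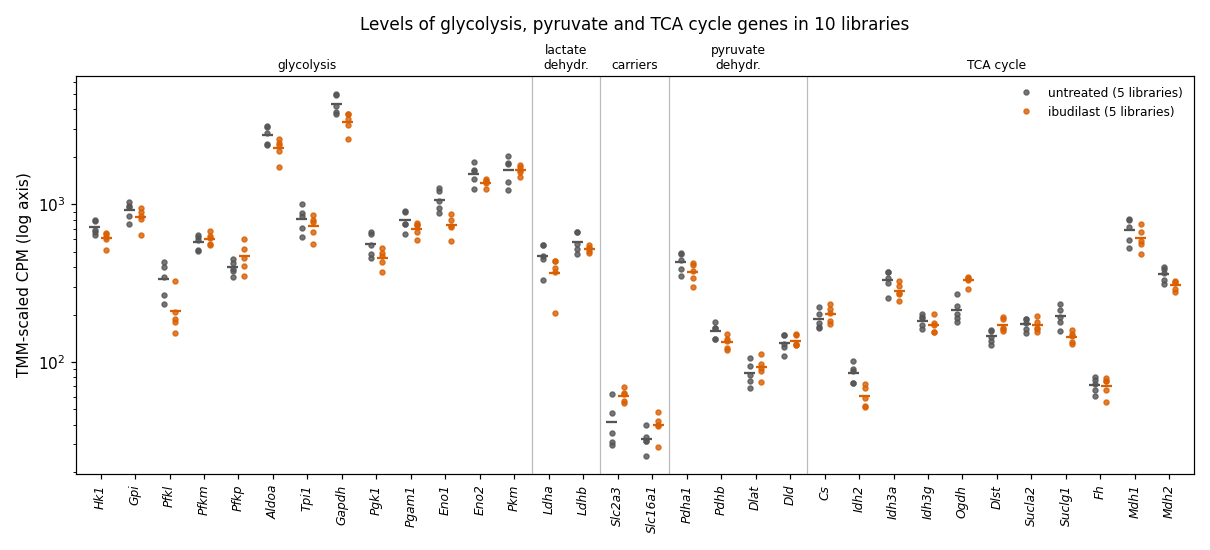
Level of each member in each library, in TMM-scaled CPM (log axis), with grey points for the 5 untreated and orange points for the 5 ibudilast libraries and a bar at each group mean. The groups are separate for Gapdh, Eno1, Idh2 and Ogdh and overlap for the other 28 genes.

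Levels are in CPM, meaning estimated counts per 1000000 of the library total times its TMM factor, and group values are means ± SD with n = 5 libraries each. The smallest estimated count behind any member value was 204, for Slc2a3. Groups did not overlap for 4 of the 32 genes (Gapdh, Eno1, Idh2 and Ogdh), where 24.2% of all tested genes had groups that did not overlap. The libraries are of whole tissue, so fewer cells of a type and less RNA per cell cannot be told apart.

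Several sets of cell markers also differed between the groups, as did 38.5% of all tested genes. Of 14 tested microglial markers 13 were lower with ibudilast, with a summed level of 629 to 1009 CPM without the drug against 311 to 563 CPM with it, and of 11 astrocyte markers 6 were lower, at 6333 to 9676 and 4293 to 5987 CPM. Of 12 tested markers of hippocampal principal cells 7 were lower, at 1422 to 3391 and 1076 to 2023 CPM, and of 14 neocortical markers 6 were higher, at 578 to 753 and 889 to 1234 CPM. Of 8 general neuronal markers 1 was lower and 1 higher, and of 12 oligodendrocyte markers 0 passed at an adjusted p under 0.05. The neuronal list includes Eno2, itself a member, and the astrocyte list includes Aldoc, a related glycolytic gene. Of the hippocampal list, Prox1 was present in every library at 8.92 CPM or more, while Spink8 and Lct stayed under 1 CPM in all 10. Neurod6 was also present in every library but was among the 7 lower, at 96.3 to 332 and 50.7 to 159 CPM. Log2 fold changes of that list ran from -2.22 (Cabp7) to 0.69 (Calb1), with 9 below 0 and 3 above. Calb1 stood at 471 CPM in ibudilast 3, where the other ibudilast libraries held 60.7 to 129 CPM. With 1 library left out its fold change ran from -0.14 to 0.95. Cerebellar markers summed to 5403 CPM in ibudilast 3, choroid plexus markers to 2594 CPM in untreated 1, and meningeal fibroblast markers to 832 and 916 CPM in ibudilast 3 and ibudilast 5, against at most 289, 72.1 and 95.6 CPM elsewhere. Without those 3 libraries Idh2 and Ogdh passed and Pfkl, Eno1, Suclg1 and Slc2a3 did not. With the mean score of neocortical markers as a covariate, Ogdh was higher and Eno1 lower as before, Hk1, Aldoa, Gapdh and Ldha were also called lower, and Pfkl (-0.78), Idh2 (-0.33), Suclg1 (-0.44) and Slc2a3 (0.42) were not called. Of these, the fold changes of Pfkl and Suclg1 were as large as without the covariate or larger. With hippocampal markers as the covariate, Ogdh alone of the members was called. The fold changes of Eno1 (-0.49), Idh2 (-0.60), Suclg1 (-0.43) and Slc2a3 (0.55) then stayed near or above their size without it, and that of Pfkl was -0.33 against -0.67. The part of the microglial and astrocyte markers in these results was not tested.

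**Figure D2:**
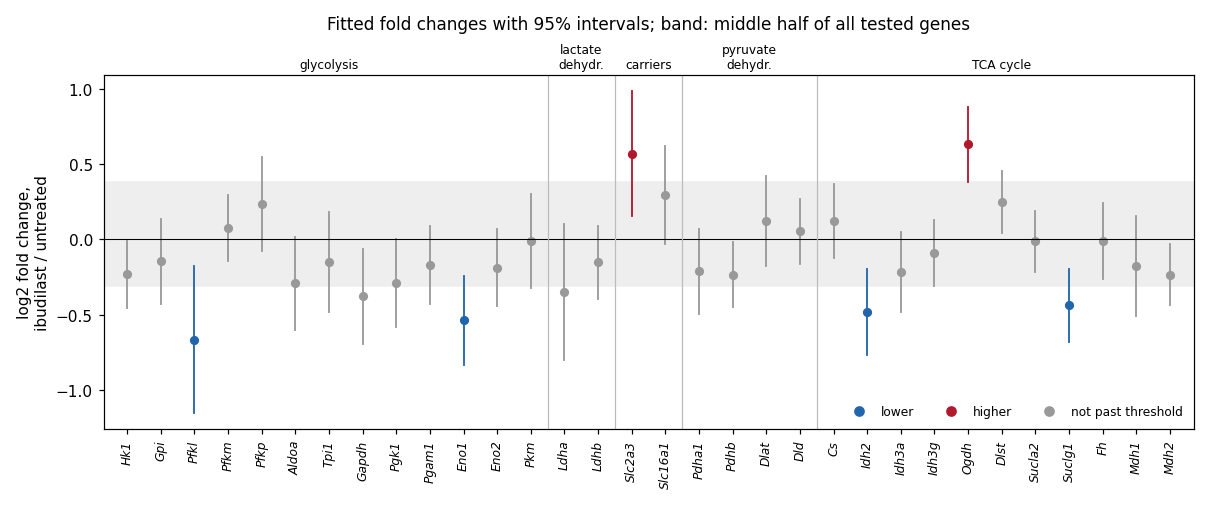
Fitted log2 fold change of each member (ibudilast over untreated) with its 95% interval, which is not adjusted for the number of genes. Blue genes were lower and red genes higher at an adjusted p under 0.05, grey genes did not pass, and the grey band spans the middle 50% of all tested genes, from -0.31 to 0.38.

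The promoters of the members that passed are shown because these are the genes whose levels differed. The 250 bases before the transcription start were read, 5′ to 3′ in the direction of the gene, from the RefSeq table of build GRCr8, which held a promoter for 29 of the 32 members and for all that passed except Slc2a3. Capitals mark ACGTG or GCGTG on either strand, the letters at the core of the element that hypoxia-inducible factors bind, as background for a pathway that these factors are known to control. The Pfkl promoter lies at chr20:10663715-10663964 (+ strand), that of Eno1 at chr5:166002617-166002866 (+ strand) (the first of 2 starts listed), that of Idh2 at chr1:143467249-143467498 (- strand), that of Suclg1 at chr4:106866079-106866328 (+ strand) and that of Ogdh at chr14:85363781-85364030 (+ strand).
Pfkl: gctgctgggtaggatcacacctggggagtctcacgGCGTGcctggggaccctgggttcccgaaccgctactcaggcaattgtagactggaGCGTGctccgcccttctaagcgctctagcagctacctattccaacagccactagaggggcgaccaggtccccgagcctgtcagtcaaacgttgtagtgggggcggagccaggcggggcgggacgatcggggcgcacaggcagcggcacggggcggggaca
Eno1: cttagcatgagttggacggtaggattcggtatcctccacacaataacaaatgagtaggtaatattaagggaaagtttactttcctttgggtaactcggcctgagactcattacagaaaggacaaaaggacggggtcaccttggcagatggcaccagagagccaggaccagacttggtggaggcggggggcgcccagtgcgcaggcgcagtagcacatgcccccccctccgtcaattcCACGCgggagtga
Idh2: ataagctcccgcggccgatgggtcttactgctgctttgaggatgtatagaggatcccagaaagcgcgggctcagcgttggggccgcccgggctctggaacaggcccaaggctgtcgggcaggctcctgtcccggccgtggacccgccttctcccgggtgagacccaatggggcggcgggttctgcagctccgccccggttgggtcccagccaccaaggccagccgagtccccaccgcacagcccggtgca
Suclg1: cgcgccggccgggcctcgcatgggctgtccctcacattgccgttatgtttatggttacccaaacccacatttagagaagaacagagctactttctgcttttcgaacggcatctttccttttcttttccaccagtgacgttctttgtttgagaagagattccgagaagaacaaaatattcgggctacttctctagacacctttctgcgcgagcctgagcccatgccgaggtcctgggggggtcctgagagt
Ogdh: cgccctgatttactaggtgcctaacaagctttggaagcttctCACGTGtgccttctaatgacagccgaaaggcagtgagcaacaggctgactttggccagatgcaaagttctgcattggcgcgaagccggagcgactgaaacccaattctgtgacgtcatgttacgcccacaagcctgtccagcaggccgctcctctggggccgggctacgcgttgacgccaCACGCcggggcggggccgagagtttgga

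Of these 5 promoters, that of Pfkl held 2 such matches, that of Ogdh 3, of which 2 share the letters of CACGTG, and that of Eno1 1. Idh2 and Suclg1 held none in this window. Over all 33469 promoters of the table, 36.7% held ACGTG or GCGTG in the same window, and 19 of the 29 members with a promoter did, or 65.5%. The first share counts promoters. The second counts genes with a match at any listed start, with 33 promoters for the 29 genes, so the shares are not strictly alike. The members' promoters were also richer in G and C, with a median of 61.2% against 51.2% over the table. The half-site AAGGTCA of estrogen-related receptors was in 3.99% of all promoters and in none of the members'. A match of letters does not show binding. Genes with a match and genes without were found both among those that fell and among those that did not pass.

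In glycolysis, Eno1 and Pfkl fell. Eno1 encodes the widely expressed enolase, which makes phosphoenolpyruvate, and stood at 1271, 881, 1218, 942 and 1050.3 CPM in untreated libraries 1 to 5 and 863, 734, 588, 791 and 714 CPM in ibudilast libraries 1 to 5. All 5 ibudilast libraries were below every untreated library. The log2 fold change was -0.54 ± 0.14 (SE; edgeR adjusted p = 0.0105), from 1072 ± 169 to 738 ± 102 CPM. Eno1 passed with any 1 library left out, with fold changes of -0.60 to -0.46, and did not pass without untreated 1, ibudilast 3 and ibudilast 5 together (-0.37, adjusted p = 0.0768).

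Pfkl encodes the liver-type subunit of phosphofructokinase, the enzyme of the committed step of glycolysis. It stood at 347, 235, 428, 264 and 398 CPM in untreated libraries 1 to 5 and 325, 188, 153, 178 and 208 CPM in ibudilast libraries 1 to 5. Ibudilast 1 lay within the untreated range, and the other 4 ibudilast libraries were below every untreated library. Its log2 fold change was -0.67 ± 0.22 (SE; edgeR adjusted p = 0.0348). With 1 library left out it ran from -0.87 to -0.56, and Pfkl passed only when that library was untreated 2, untreated 4 or ibudilast 1. The other subunits did not pass: Pfkm, the muscle type, had a log2 fold change of 0.08 ± 0.10 and Pfkp, the platelet type, 0.23 ± 0.14 (SE; edgeR adjusted p = 0.563 and 0.213). Without ibudilast 3, Pfkp passed, with a log2 fold change of 0.33 and an adjusted p = 0.0496.

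Gapdh, often used as a reference gene, was lower in every ibudilast library than in any untreated library but missed the threshold. It stood at 5037, 3861, 4907, 3756 and 4184 CPM in untreated libraries 1 to 5 and 3731, 3467, 2607, 3737 and 3181 CPM in ibudilast libraries 1 to 5. The step between the groups was narrow, with ibudilast 4 close under untreated 4. The log2 fold change was -0.38 ± 0.14 (SE; edgeR adjusted p = 0.0568), and Gapdh passed with DESeq2 (adjusted p = 0.0128), limma-voom (0.0479) and upper-quartile scaling (0.0296).

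The first and last enzymes of glycolysis did not pass in the main fit. Hk1 encodes the main brain hexokinase, which traps glucose in the cell as glucose-6-phosphate, and stood at 691, 669, 792, 635 and 784 CPM in untreated libraries 1 to 5 and 649.6, 619, 512, 655 and 605 CPM in ibudilast libraries 1 to 5. Untreated 4 lay inside the ibudilast range, and the log2 fold change was -0.23 ± 0.10 (SE; edgeR adjusted p = 0.0905). Hk1 passed as lower with DESeq2 (adjusted p = 0.0452) and upper-quartile scaling. It also passed with the neocortical covariate and with the trend of fold change on gene span removed. Pkm encodes pyruvate kinase, which makes pyruvate, and stood at 1841, 1241, 2019.6, 1387 and 1808 CPM in untreated libraries 1 to 5 and 1652, 1721, 1482, 1779.7 and 1597 CPM in ibudilast libraries 1 to 5. The ibudilast libraries all lay inside the wider untreated range, and the log2 fold change was -0.01 ± 0.14, with a 95% interval of -0.32 to 0.30.

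The remaining glycolytic genes had overlapping groups and log2 fold changes between -0.29 and -0.15. They encode glucose-6-phosphate isomerase (Gpi, -0.15), aldolase A (Aldoa, -0.29), triose phosphate isomerase (Tpi1, -0.15), phosphoglycerate kinase (Pgk1, -0.29), phosphoglycerate mutase (Pgam1, -0.17) and the neuronal enolase (Eno2, -0.19). Their adjusted p lay between 0.108 and 0.446 (edgeR). Aldoa, Tpi1 and Gapdh had estimated counts that were not whole in at least 7 of 10 libraries, so some of their reads were shared with other sequences in the annotation used.

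Neither lactate dehydrogenase gene passed. Ldha encodes the subunit that favours lactate formation and stood at 553, 331, 549.5, 449.8 and 469.7 CPM in untreated libraries 1 to 5 and 439.7, 397, 204, 434 and 373 CPM in ibudilast libraries 1 to 5. Ibudilast 3 was the lowest of the 10 and the other 4 ibudilast libraries lay inside the untreated range. Its log2 fold change was -0.35 ± 0.21 (SE; edgeR adjusted p = 0.196), or -0.19 without ibudilast 3. Ldhb encodes the subunit that favours pyruvate formation and is common in neurons, and it stood at 669, 563, 671, 482 and 517 CPM in untreated libraries 1 to 5 and 488, 556, 531, 529.6 and 507 CPM in ibudilast libraries 1 to 5. Its groups overlapped, with a log2 fold change of -0.15 ± 0.11 (SE).

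Among the carriers, Slc2a3 rose. It encodes GLUT3, the main glucose carrier of neurons, and stood at 29.9, 31.1, 47.8, 35.5 and 62.6 CPM in untreated libraries 1 to 5 and 55.1, 63.2, 56.3, 69.5 and 62.3 CPM in ibudilast libraries 1 to 5. Untreated 5 lay within the ibudilast range, and the other 4 untreated libraries were below every ibudilast library. Its log2 fold change was 0.57 ± 0.19 (SE; edgeR adjusted p = 0.0354). The call was lost without untreated 1, untreated 2, untreated 4, ibudilast 2, ibudilast 4 or ibudilast 5, with fold changes of 0.47 to 0.79 over the 10 fits, and with the trend of fold change on gene span removed (0.36, adjusted p = 0.135). Slc16a1 encodes MCT1, a carrier of lactate and pyruvate in glia and vessels, and stood at 33.4, 25.4, 31.5, 31.3 and 40.1 CPM in untreated libraries 1 to 5 and 28.8, 47.9, 42.5, 39.7 and 39.0 CPM in ibudilast libraries 1 to 5. Ibudilast 2 and ibudilast 3 were above every untreated library and the other ibudilast libraries lay inside the untreated range, and the log2 fold change was 0.29 ± 0.15 (SE; edgeR adjusted p = 0.136). Without ibudilast 1 Slc16a1 passed, with an adjusted p = 0.0368.

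The 4 genes of the pyruvate dehydrogenase complex did not pass, and their fold changes had different signs. Pdha1 encodes the catalytic E1 alpha subunit, which is switched off by phosphorylation, and stood at 495, 349, 482, 387 and 446 CPM in untreated libraries 1 to 5 and 341, 415, 300.0, 427 and 380.2 CPM in ibudilast libraries 1 to 5. The groups overlapped, and only ibudilast 1 and ibudilast 3 were below untreated 2. Pdhb, the E1 beta subunit, stood at 164, 140.5, 178, 141 and 164 CPM in untreated libraries 1 to 5 and 123, 139, 137, 150.1 and 119.5 CPM in ibudilast libraries 1 to 5. Ibudilast 4 exceeded untreated 2 and untreated 4, and every untreated library was above ibudilast 1, ibudilast 2, ibudilast 3 and ibudilast 5. Fitted log2 fold changes were -0.21 ± 0.13 for Pdha1 and -0.23 ± 0.10 for Pdhb (SE; edgeR adjusted p = 0.21 and 0.0759). Pdhb passed with upper-quartile scaling.

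Dlat, the acetyl-transferring E2 core of the complex, stood at 76.1, 67.9, 94.2, 82.8 and 106 CPM in untreated libraries 1 to 5 and 87.7, 97.4, 74.3, 112 and 91.7 CPM in ibudilast libraries 1 to 5. Untreated 5 and ibudilast 4 were the highest of their groups, and the groups overlapped. The log2 fold changes were 0.12 ± 0.14 for Dlat and 0.05 ± 0.10 for Dld, the E3 subunit that is shared with the 2-oxoglutarate dehydrogenase complex (SE; edgeR adjusted p = 0.501 and 0.701). The 95% intervals, -0.18 to 0.42 and -0.17 to 0.27, include changes in either direction.

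In the TCA cycle, Ogdh rose. It encodes the E1 subunit of the 2-oxoglutarate dehydrogenase complex, a calcium-sensitive and rate-setting step of the cycle, and stood at 189, 180.5, 225, 202 and 269 CPM in untreated libraries 1 to 5 and 332, 342, 292, 346 and 334 CPM in ibudilast libraries 1 to 5. All 5 ibudilast libraries were above every untreated library. The mean went from 213 ± 35.6 to 329 ± 21.5 CPM, a difference of 0.63 ± 0.11 log2 units (SE; edgeR adjusted p = 0.00231). Ogdh was the only member to pass in all 20 other fits, including those with a score of neocortical markers (0.50) or of hippocampal markers (0.68) as a covariate and that with the span trend removed (0.41).

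The partner subunits of Ogdh did not pass. Dlst, the E2 subunit of the same complex, went from 146 ± 13.7 to 173 ± 16.4 CPM, a difference of 0.25 ± 0.09 log2 units (SE; edgeR adjusted p = 0.0565). Dlst passed with DESeq2 (adjusted p = 0.0326) and without ibudilast 3 or untreated 5 (0.0371 and 0.0259). Dld, given above, had a fold change near 0. The estimated counts of Dlst were not whole in any of the 10 libraries.

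Idh2 and Suclg1 fell. Idh2 encodes the mitochondrial NADP-dependent isocitrate dehydrogenase, which supplies NADPH in the matrix, and stood at 89.9, 102, 87.9, 73.7 and 73.9 CPM in untreated libraries 1 to 5 and 59.0, 51.9, 72.8, 52.8 and 68.8 CPM in ibudilast libraries 1 to 5. Every ibudilast library was below every untreated library, though ibudilast 3 came within 1 CPM of untreated 4. Its log2 fold change was -0.48 ± 0.13 (SE; edgeR adjusted p = 0.0139), or -0.33 with the neocortical score as a covariate, and -0.60 with hippocampal markers as the covariate, and it passed in neither (adjusted p = 0.151 and 0.0611).

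Suclg1 encodes the alpha subunit of succinyl-CoA ligase, shared by the ADP- and GTP-forming enzymes, and stood at 232, 158, 213, 179.6 and 192 CPM in untreated libraries 1 to 5 and 159, 146, 134, 151 and 129.6 CPM in ibudilast libraries 1 to 5. Ibudilast 1 exceeded untreated 2 by less than 1 CPM, and otherwise the ibudilast libraries were lower. The log2 fold change was -0.44 ± 0.11 (SE; edgeR adjusted p = 0.0105), or -0.29 without untreated 1, ibudilast 3 and ibudilast 5, where it did not pass. Sucla2, the beta subunit of the ADP-forming enzyme, had a log2 fold change of -0.01 ± 0.09 (95% interval -0.21 to 0.19). Suclg2, the beta subunit of the GTP-forming enzyme and not among the 32 genes, fell by 0.65 on the log2 scale (edgeR adjusted p = 0.00556). The difference between the beta subunits was not tested.

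The other enzymes of the cycle did not pass. Cs encodes citrate synthase, the entry step of the cycle, and stood at 176, 165, 201, 167 and 222 CPM in untreated libraries 1 to 5 and 183, 216, 174, 234 and 205 CPM in ibudilast libraries 1 to 5. Its groups overlapped, with untreated 5 and ibudilast 4 at the top. Idh3a, the catalytic subunit of the NAD-dependent isocitrate dehydrogenase, stood at 371, 253, 373, 315 and 342 CPM in untreated libraries 1 to 5 and 272, 303, 244, 328 and 274 CPM in ibudilast libraries 1 to 5. Only ibudilast 3 was below untreated 2, and untreated 1, untreated 3 and untreated 5 were above every ibudilast library. The log2 fold changes were 0.12 ± 0.11 for Cs, -0.22 ± 0.12 for Idh3a and -0.09 ± 0.10 for Idh3g, a regulatory subunit of the same enzyme (SE; edgeR adjusted p = 0.413, 0.173 and 0.494).

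The malate dehydrogenases also had overlapping groups. Mdh1 encodes the cytosolic enzyme of the malate-aspartate shuttle and stood at 807, 528, 793, 596 and 721 CPM in untreated libraries 1 to 5 and 560.4, 670.4, 488, 746 and 582 CPM in ibudilast libraries 1 to 5. Mdh2 encodes the mitochondrial enzyme of the cycle and stood at 402, 315, 389.5, 332 and 367 CPM in untreated libraries 1 to 5 and 325, 318, 292, 320.1 and 279 CPM in ibudilast libraries 1 to 5. Of the Mdh2 values, ibudilast 1, ibudilast 2 and ibudilast 4 lay just above untreated 2 and below the other untreated libraries. The log2 fold changes were -0.18 ± 0.15 and -0.23 ± 0.09 (SE; edgeR adjusted p = 0.371 and 0.0644). Mdh2 passed without untreated 2 (edgeR adjusted p = 0.0396), with DESeq2 (adjusted p = 0.0262) and with upper-quartile scaling. Fh, which encodes fumarase, had a log2 fold change of -0.01 ± 0.11 and a 95% interval of -0.26 to 0.24.

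The same libraries were high or low for many members at once. Untreated 2 was the lowest untreated library for 23 of 32 genes, and untreated 1 and untreated 3 together held the highest of all 10 values for 20 of 32. Ibudilast 3 was the lowest ibudilast library for 20 of 32 genes, and ibudilast 4 the highest for 20 of 32. The summed level of the 13 glycolytic genes ran from 14047 to 18999 CPM without the drug and from 11533 to 15496 CPM with it, and that of the 11 TCA cycle genes 2234 to 2893 and 2291 to 2815 CPM. Both sums overlapped between the groups, and for the TCA cycle the ibudilast range lay inside the untreated range. Ibudilast 3 is the library with the cerebellar markers, and without it the median log2 fold change was -0.17 for glycolysis and -0.10 for the TCA cycle.

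**Figure D3:**
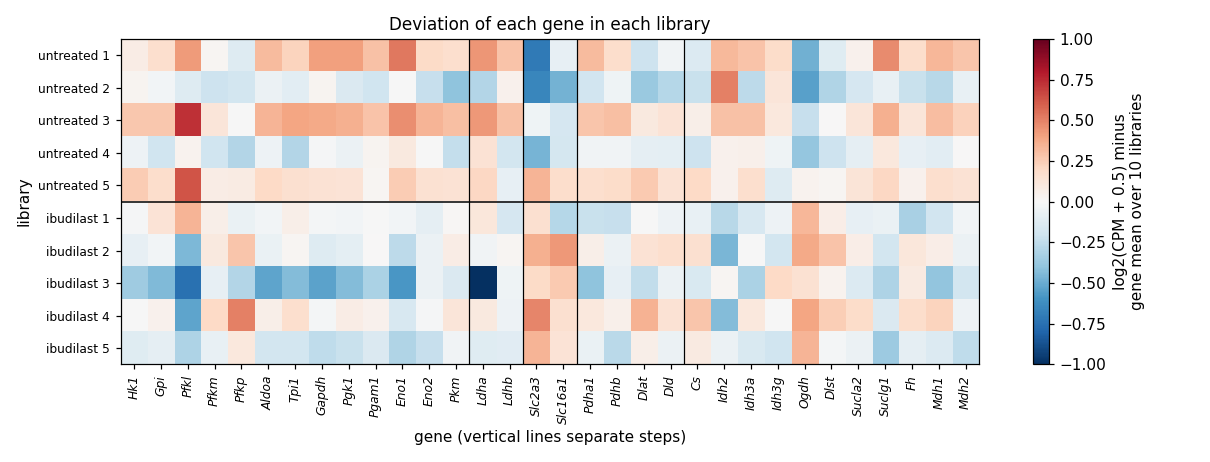
Deviation of each member in each library from its own mean over the 10 libraries, in log2(CPM + 0.5), from blue (below) to red (above), with untreated libraries above the line. Untreated 1 and untreated 3 are red and ibudilast 3 is blue across most glycolytic genes, while Slc2a3 and Ogdh are blue in untreated 1 and red in ibudilast 3.

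Ratios of paired genes within a library hardly depend on how that library was scaled, apart from the pseudocount of 0.5 CPM. Log2 ratios were computed for 7 pairs and compared by two-sided exact permutation of the 10 libraries, with Benjamini-Hochberg adjustment over the 7, and none had an adjusted p under 0.05. The smallest p the design allows is 0.00794, which becomes 0.0556 after adjustment when a single pair of the 7 reaches it. The Eno1/Eno2 ratio, of the general to the neuronal enolase, was -0.39, -0.50, -0.60, -0.63 and -0.62 on the log2 scale in untreated libraries 1 to 5 and -0.67, -0.93, -1.25, -0.87 and -0.80 in ibudilast libraries 1 to 5. The ratio was lower in all 5 ibudilast libraries than in any untreated library, by 0.36 on average (exact permutation p = 0.00794, adjusted p = 0.0556).

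The Pfkl/Pfkp ratio was -0.17, -0.68, 0.01, -0.39 and -0.18 in untreated and -0.33, -1.46, -1.18, -1.76 and -1.14 in ibudilast libraries, in the same order. It lay below the untreated range in 4 of 5 ibudilast libraries, ibudilast 1 being the exception, with a mean difference of -0.89 (exact permutation p = 0.0238, adjusted p = 0.0833). Differences for the other 5 pairs ran from -0.24 for Ldha/Ldhb to 0.06 for Mdh1/Mdh2, with exact permutation p from 0.214 for Pfkm/Pfkp to 0.825 for Pdha1/Pdhb. Astrocyte and microglial markers, given above, were also lower with ibudilast, and their part in these ratios was not tested.

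**Figure D4:**
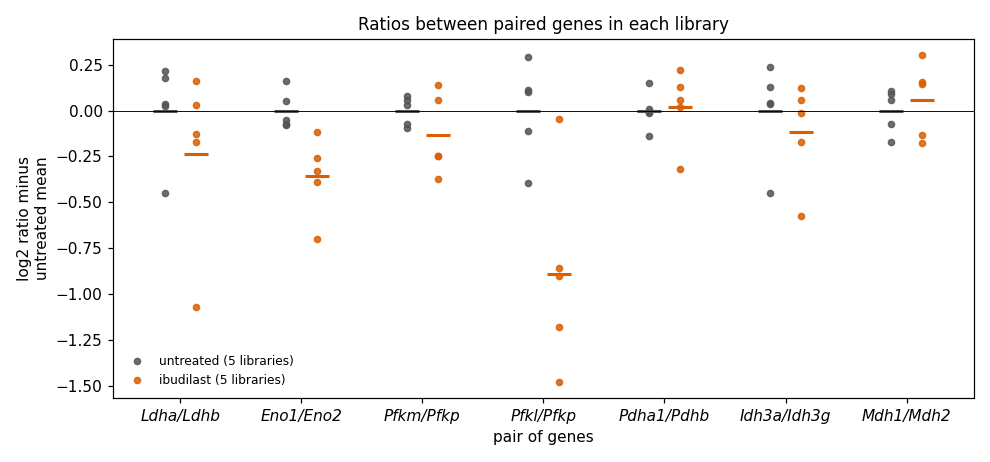
Log2 ratio of each pair of genes in each library, minus the mean of the untreated libraries, with grey points for untreated, orange points for ibudilast libraries and bars at the group means. The 5 ibudilast points lie below all untreated points for Eno1/Eno2, and 4 of 5 do so for Pfkl/Pfkp.

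Across the 32 genes, the fold change went with the genomic span of the gene. The members span 3531 (Tpi1) to 101593 bases (Hk1) in the GRCr8 annotation, which approximates the build of the counts. All 16 of the shorter members had a negative fold change, with a median of -0.23, and 7 of the 16 longer members did, with a median of 0.06. Spearman's rho of span and log2 fold change was 0.56 across the 32 members and 0.34 across 11473 tested genes, where genes share libraries and are not independent replicates. With this trend removed for each library, Pfkl, Eno1, Idh2, Suclg1 and Ogdh still passed, Slc2a3 did not, and Hk1, the longest member, passed as lower (-0.51, adjusted p = 0.00513).

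The related gene lists are read against the share of all tested genes that passed, 38.5% (18.5% lower and 20% higher). Of the 34 related genes called, 22 kept their call with the neocortical covariate and 23 without untreated 1, ibudilast 3 and ibudilast 5 together. With the hippocampal covariate only 7 did: Pfkfb3, Mpc1, Pdpr, Sdhc, Gbe1, Myc and Prkaa2. With the trend on gene span removed 26 kept their call. Pfkfb3, Slc16a7, Bsg, Sdhd, Slc25a1, Gbe1, Phkb and Hif1a lost it there. Of 12 tested genes of pyruvate entry and its regulation 2 fell and 3 rose, or 41.7%, a share near that background. Those that rose act on the phosphorylation of pyruvate dehydrogenase: Pdp1 and Pdp2 encode the phosphatases that switch the complex on, and Pdpr encodes their regulatory subunit. Pdpr stood at 8.65, 8.90, 9.58, 9.14 and 9.81 CPM in untreated libraries 1 to 5 and 14.0, 19.6, 20.3, 17.1 and 17.3 CPM in ibudilast libraries 1 to 5. The groups did not overlap, all ibudilast libraries being higher, with a difference of 0.94 ± 0.12 log2 units (SE; edgeR adjusted p = 0.000972). Pdp2 went from 3.92 ± 0.620 to 8.88 ± 1.997 CPM and Pdp1 from 35.9 ± 4.73 to 60.7 ± 19.4 CPM. Their log2 fold changes were 1.18 ± 0.20 and 0.76 ± 0.20 (SE; edgeR adjusted p = 0.00187 and 0.0144), and that of Pdp1 was 0.20 with the neocortical and 0.74 with the hippocampal covariate (adjusted p = 0.435 and 0.144).

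The opposing kinases, which switch the complex off, did not pass. Log2 fold changes were 0.10 ± 0.16 for Pdk1, -0.14 ± 0.14 for Pdk2, -0.19 ± 0.09 for Pdk3 and 0.56 ± 0.37 for Pdk4 (SE), with adjusted p from 0.122 to 0.638. The mitochondrial pyruvate carrier fell in both its subunits. Mpc1 stood at 149, 131, 147, 135 and 108 CPM in untreated libraries 1 to 5 and 91.2, 99.2, 88.8, 103 and 88.7 CPM in ibudilast libraries 1 to 5. The groups did not overlap, all ibudilast libraries being lower, with a difference of -0.51 ± 0.10 log2 units (SE; edgeR adjusted p = 0.00324). Mpc2 went from 35.04 ± 5.30 to 26.4 ± 3.24 CPM (-0.41 ± 0.13, SE; edgeR adjusted p = 0.0255) and its call was lost when untreated 1, untreated 3 or ibudilast 5 was left out. The Mpc2 call was also lost with either marker covariate and without untreated 1, ibudilast 3 and ibudilast 5 together. Pdhx, which anchors the E3 subunit in the complex, had a log2 fold change of -0.18 ± 0.09.

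Other glycolytic enzymes and the enzymes that set fructose-2,6-bisphosphate, an activator of phosphofructokinase, included 2 lower and 3 higher of 14, or 35.7% called against 38.5% of all tested genes. Galm, which encodes a mutarotase of sugars, and Bpgm, which encodes bisphosphoglycerate mutase, had log2 fold changes of -0.45 ± 0.09 and -0.44 ± 0.10 (SE). Pfkfb2 went from 18.7 ± 1.93 to 26.9 ± 2.65 CPM (0.52 ± 0.11) and Pfkfb3, named after its values were seen, from 17.3 ± 5.66 to 30.2 ± 5.25 CPM (0.80 ± 0.22), and both encode enzymes that make and degrade fructose-2,6-bisphosphate. Gpd1l, a relative of glycerol-3-phosphate dehydrogenase, rose by 0.88 on the log2 scale. Hk2, the inducible hexokinase, and Aldoc, the brain aldolase of astrocytes, had log2 fold changes of -0.46 ± 0.17 and -0.31 ± 0.13 (SE; edgeR adjusted p = 0.0541 and 0.0793), and they passed without ibudilast 1 and without untreated 4, respectively.

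Among other carriers 2 of 7 were lower and 1 higher, or 42.9% against 38.5% of all tested genes. Slc2a1 encodes GLUT1, the glucose carrier of brain vessels and astrocytes, and stood at 215, 255, 229, 209 and 162 CPM in untreated libraries 1 to 5 and 123, 136, 139, 111 and 211 CPM in ibudilast libraries 1 to 5. Ibudilast 5 lay within the untreated range and the other 4 ibudilast libraries below it. Its log2 fold change was -0.57 ± 0.18 (SE; edgeR adjusted p = 0.027), of opposite sign to that of Slc2a3, and its call was lost when untreated 1, untreated 2, untreated 3, ibudilast 1, ibudilast 2 or ibudilast 4 was left out. Of the 12 endothelial and pericyte markers, of which Slc2a1 is 1, 5 were lower, and their summed level ran from 592 to 843 CPM without the drug and from 406 to 693 CPM with it. Bsg, the chaperone of the monocarboxylate carriers, had a log2 fold change of -0.40 ± 0.11. Slc16a7, the neuronal monocarboxylate carrier MCT2, had 0.80 ± 0.29 but kept its call in only 2 of the 10 fits that each lacked 1 library, those without untreated 4 or ibudilast 3, and with neither covariate (adjusted p = 0.998 with the neocortical score, and 0.181 with the hippocampal score at a larger fold change of 0.96).

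Of 18 other TCA cycle and anaplerotic genes 6 fell and none rose, so 33.3% were lower and 0% higher, against 18.5% and 20% of all tested genes. Sdhc, a membrane anchor subunit of succinate dehydrogenase, stood at 159, 145, 155, 136 and 136 CPM in untreated libraries 1 to 5 and 102, 104, 99.6, 105 and 98.0 CPM in ibudilast libraries 1 to 5. Every ibudilast library was below every untreated library, with a difference of -0.52 ± 0.07 log2 units (SE; edgeR adjusted p = 0.00105). Glud1, glutamate dehydrogenase, and Slc25a1, the mitochondrial citrate carrier, had log2 fold changes of -0.62 ± 0.13 and -0.48 ± 0.11 (SE; edgeR adjusted p = 0.00495 and 0.00643). With Suclg2, given above, and with Sdhd and Me1, named after their values were seen (-0.29 and -0.47), these make up the 6. The call of Me1 was lost when ibudilast 2, ibudilast 5, untreated 1 or untreated 3 was left out, and that of Sdhd in 7 of the 10 fits, all but those without untreated 4, untreated 5 or ibudilast 4.

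In the pentose phosphate pathway, which branches from glucose-6-phosphate, 2 of 7 genes fell and 1 rose, or 42.9% against 38.5% of all tested genes. Taldo1, transaldolase, and Rpe, ribulose-phosphate epimerase, had log2 fold changes of -0.59 ± 0.10 and -0.33 ± 0.10 (SE). H6pd, the glucose-6-phosphate dehydrogenase of the endoplasmic reticulum, stood at 4.11, 7.56, 5.47, 6.86 and 9.12 CPM in untreated libraries 1 to 5 and 11.7, 17.8, 34.8, 17.02 and 17.6 CPM in ibudilast libraries 1 to 5. Every ibudilast library was above every untreated library and ibudilast 3 was the highest, and the log2 fold change was 1.58 ± 0.30 (SE; edgeR adjusted p = 0.00288). Rpe lost its call when untreated 2, untreated 3, untreated 5 or ibudilast 4 was left out. In glycogen metabolism 2 of 14 fell and 2 rose, or 28.6%, below the 38.5% of all tested genes. Gyg1, the primer of glycogen synthesis, went from 54.4 ± 15.9 to 22.7 ± 6.34 CPM (-1.26 ± 0.23), and Pgm1, phosphoglucomutase, had a log2 fold change of -0.35 ± 0.10 (SE). Gbe1, the branching enzyme, and Phkb, a subunit of phosphorylase kinase, rose by 0.62 and 0.60 on the log2 scale. Neither passed with the span trend removed.

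Of 15 regulators of energy metabolism 2 were lower and 6 higher, or 13.3% and 40%, against 18.5% and 20% of all tested genes. Esrrg, an estrogen-related receptor that drives genes of oxidative metabolism, stood at 6.75, 6.10, 5.47, 4.97 and 11.5 CPM in untreated libraries 1 to 5 and 9.40, 32.5, 35.7, 36.7 and 22.4 CPM in ibudilast libraries 1 to 5. Ibudilast 1 lay within the untreated range and the other 4 ibudilast libraries above it, with a difference of 1.98 ± 0.36 log2 units (SE; edgeR adjusted p = 0.00248). Its coactivators Ppargc1a and Ppargc1b had log2 fold changes of 1.32 ± 0.26 and 1.61 ± 0.31 (SE; edgeR adjusted p = 0.00373 and 0.00309). With hippocampal markers as a covariate none of these 3 passed, with fold changes of 0.92, 0.81 and 0.89, while with neocortical markers as the covariate all 3 passed, with 2.01, 1.15 and 1.94.

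Prkaa2 encodes a catalytic subunit of AMP-activated kinase, the energy sensor of the cell, and went from 5.89 ± 1.77 to 16.5 ± 4.07 CPM (1.49 ± 0.24, SE; edgeR adjusted p = 0.00145). Hif1a, which encodes the oxygen-regulated driver of glycolytic genes, went from 71.0 ± 10.1 to 96.6 ± 18.3 CPM (0.45 ± 0.14, SE; edgeR adjusted p = 0.0286) and its call was lost when untreated 1, untreated 2 or untreated 3 was left out. Myc, a growth-linked activator of glycolytic genes, fell by 1.07 on the log2 scale, with every ibudilast library below every untreated library. Esrra and Sirt3, the others that passed, had log2 fold changes of 0.27 and -0.40 and were named after their values were seen. In the 10 fits that each lacked 1 library, Esrra kept its call only without untreated 3 or ibudilast 1. Of the 34 related genes called, Mpc1, Pdpr, Sdhc, Myc and Prkaa2 passed in all 20 other fits.

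**Figure D5:**
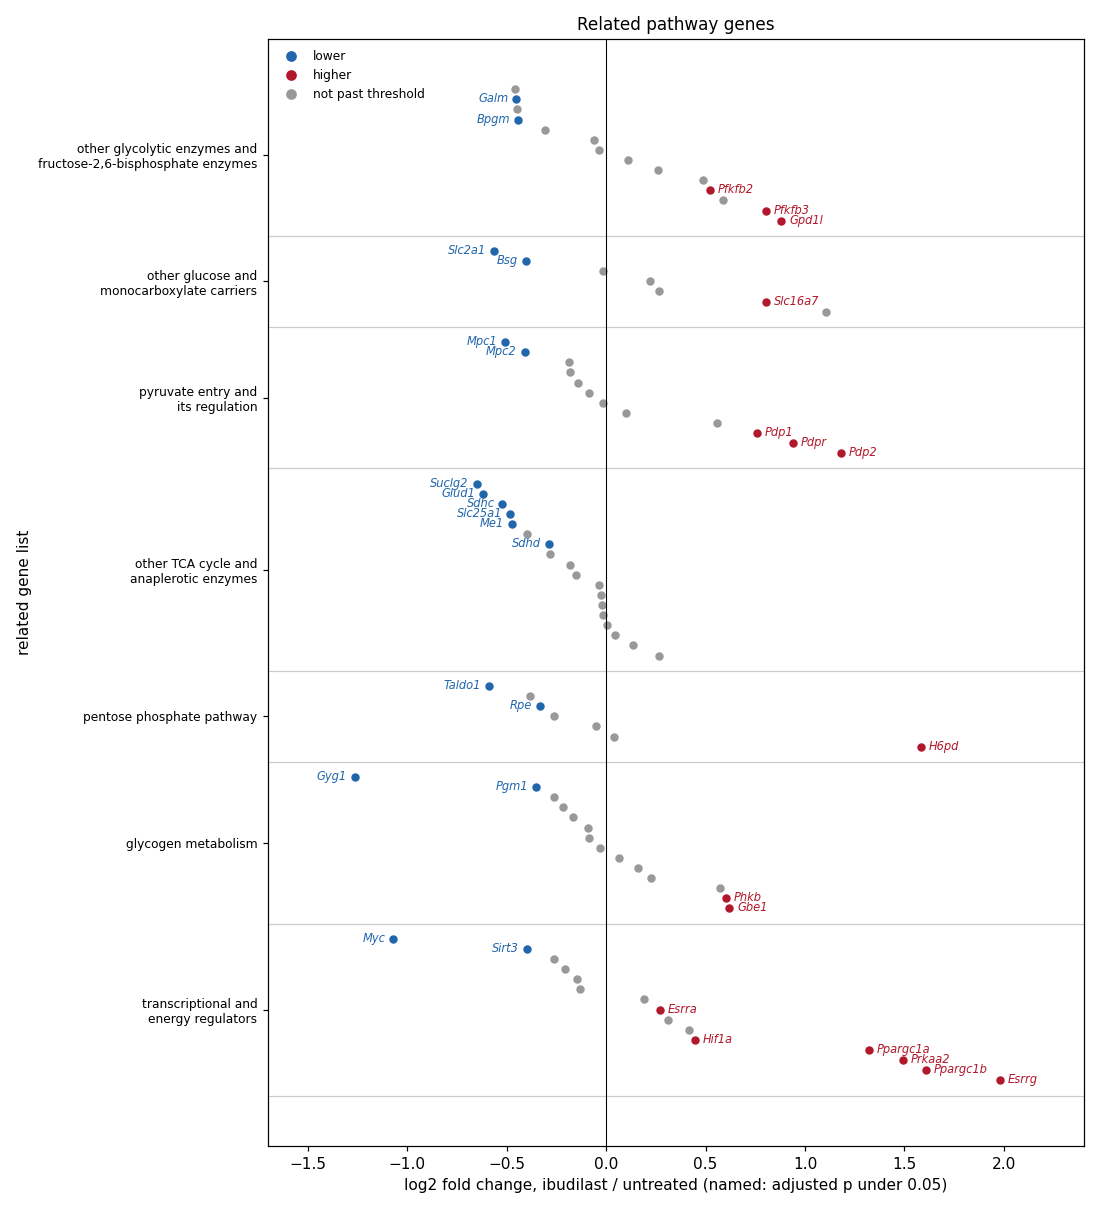
Fitted log2 fold change (ibudilast over untreated) of each tested gene of the 7 related lists, with blue for lower, red for higher and grey for not past the threshold, and names beside the genes that passed. The pyruvate dehydrogenase phosphatase genes Pdp1, Pdp2 and Pdpr lie to the right and the pyruvate carrier genes Mpc1 and Mpc2 to the left.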

How the data were processed

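RNA of left hippocampus had been made into strand-specific mRNA libraries, per the labels' protocols. The deposited expected counts per gene are the authors' estimates. The submitters' processing notes name bcl2fastq 2.17, Bowtie2 2.1.0, RSEM 1.2.15, edgeR and build rn6, while no source used here gives the annotation or the strand setting of the counting. The second deposited table, of signal, holds the authors' TMM-scaled CPM, and CPM recomputed here differed from it by at most 0.0474% for the members. Totals ran from 6960066 to 10121571 estimated counts per library. Of each library's values, 10.6% to 11.3% were not whole numbers, and counts were rounded. Groups follow the treatment label. The labels do not say which animal gave each library, so p-values measure the spread between these libraries.

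Differences were tested over all genes with edgeR 4.0.16 in R 4.3.3 (TMM, filterByExpr, quasi-likelihood test, adjusted p under 0.05). SEs and 95% intervals follow from its F statistic. On data simulated first, the fit recovered 20% of 1.5-fold and 75% of 2-fold changes. In that simulation 101 of 11593 genes were called, 6 of them falsely, a far smaller share than in the data. With fewer genes called, the adjusted threshold was stricter in the simulation, so its recovery rates do not carry over to the data. A member that did not pass may still differ between the groups. The alternatives were DESeq2 1.42.0, voom in limma 3.58.1, other scalings, no filter, marker score covariates, a loess offset on span, the replicate block and left-out libraries. Ratios used a pseudocount of 0.5 CPM. Members, lists and tests were chosen with earlier results of these data known.

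Values in every library are given for 14 fixed members, for the 2 of smallest p in each main step and for called members that moved against their step, while Idh2 was added after its values were seen. Related lists name up to 4 called genes of smallest p, and fixed genes, and 2 genes of these lists are not reported here. The promoter motifs were chosen after the fold changes were seen.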

Additional observations from a re-analysis of the deposited data

Results flagged for a closer look

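In 78 groups of 5 values (32 genes and 7 ratios in each treatment group), 4 had a library whose gap to its nearest neighbour exceeded 0.71 of the group's range, and chance flags about 1 in 20 groups. Ldha was lowest in ibudilast 3, at 204 CPM, where the other libraries of that group held 373 to 439.7 CPM, and the log2 Ldha/Ldhb ratio was -1.38 there, against -0.48 to -0.15. Ogdh was also lowest in ibudilast 3 within its group, at 292 CPM where the others held 332 to 346 CPM, and still above every untreated library. In untreated 2 the log2 Ldha/Ldhb ratio was -0.76, against -0.29 to -0.10 in the other untreated libraries. Ibudilast 3 is the library in which cerebellar markers summed to 5403 CPM, and the part of this in its Ldha and Ogdh values was not tested.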

How the results depend on the processing

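All 32 members kept the sign of their fold change with RLE or upper-quartile scaling, DESeq2 and no filter on low counts. DESeq2 called 7 members lower and upper-quartile scaling 8, where edgeR called 4. Members called higher numbered 1 with the neocortical covariate, the hippocampal covariate or the span trend removed, where the main count was 2. With the hippocampal covariate 0 members were called lower (6 of 32 in either direction at an unadjusted p under 0.05) and 1084 genes were called in all, against 4497. Without untreated 1, ibudilast 3 and ibudilast 5 together, 1 member was called lower and 1 higher, of 3112 genes called. With 1 library left out, 3458 to 4751 genes were called, 3 to 5 members were lower and 1 to 4 higher, and the median log2 fold changes were -0.25 to -0.12 for glycolysis, -0.14 to -0.02 for pyruvate dehydrogenase and -0.12 to -0.05 for the TCA cycle. The cause of these changes was not tested. Of the ratios, none passed under any setting run, and with 7 ratios no design with fewer libraries could bring a single ratio past the threshold. The replicate numbers did not pair the libraries (correlations of same-numbered deviations from -0.11 to 0.03), and with the replicate block edgeR called 3535 genes and the same 6 members. The exact paired sign-flip test of the ratios could not go below p = 0.0625. Each member's value in each library rests on at least 204 estimated counts.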
